A study of Schizosaccharomyces pombe with 6 samples.

Results

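The genes described here encode subunits of Mediator, TFIID and SAGA in fission yeast (Schizosaccharomyces pombe), measured in a wild-type strain and in a strain labelled as a duf89 deletion. They were chosen by name alone: every gene of the deposited comparison whose common name is med, taf, sgf, ada or spt followed by a number, without spt4 and spt5 and without non-coding RNAs. This rule gave 37 of the 6986 genes in the count table. The deposited product descriptions place 11 of them in Mediator, 9 in TFIID, 8 in SAGA and 5 in both SAGA and TFIID. The other 4 belong to none of the 3 complexes, so the group's name holds for 33 genes. Of those 4, spt6, spt16 and spt2 encode proteins that act on histones, and ada1 is described as an adenosine deaminase. The SAGA subunit called Ada1 in budding yeast is encoded here by hfi1, which the naming rule does not catch.

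Polyadenylated RNA came from log-phase cultures in rich YES medium at 30 ºC, with 3 libraries of the wild-type strain (WT, JS 77) and 3 of the deletion strain AS2300, an h- strain with a hygromycin resistance marker in place of duf89. The labels give no other difference between the strains and 1 strain for each genotype. They call the replicates of the deletion biological and only number those of WT, so p-values measure the spread between these libraries, which may in part be technical. The series text says that WT had been deposited earlier with another series and was sequenced alongside the mutant. The protocol names more than 1 instrument model and does not give which library ran on which. A difference between instruments could thus not be tested.

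Mediator is a large assembly that bridges DNA-bound activators and RNA polymerase II. It is built of a head, a middle and a tail, joined by the scaffold subunit Med14, and it can carry a dissociable kinase module. TFIID is made of the TATA-binding protein (TBP) and TBP-associated factors, the TAFs, and it nucleates the pre-initiation complex at promoters. SAGA is a coactivator that acetylates and deubiquitinates histones and also delivers TBP; it shares a set of histone-fold and WD-repeat TAFs with TFIID. The roles given for single subunits below rest largely on work in budding yeast.

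Library totals ran from 18244492 to 21572536 counts, and 6045 genes passed the filter on low counts, all 37 named ones among them. The targeted gene, duf89, stood at 44.7, 46.2 and 42.0 CPM (read counts scaled to library size with TMM factors) in WT and at 10.6, 11.5 and 17.7 CPM in the deletion, with counts of 229, 234 and 373 left in the deletion. It fell by 1.74 on the log2 scale (SE 0.16, edgeR adjusted p = 6.6e-05). The level in the deletion was thus lower but not 0; counts per gene do not show where in duf89 these reads lie, and their source was not tested. Unless another test is named, adjusted p-values below are from edgeR's quasi-likelihood test with Benjamini-Hochberg adjustment over all tested genes. A gene is said to have risen or fallen where this value was below 0.05. A CPM value is a share of the sequenced polyadenylated RNA, so a change in the copies of one mRNA cannot be told apart from a change in the amount of the rest.

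Of the 37 genes, 26 were higher in the deletion, 2 were lower and 9 did not pass the test. The changes were small, from -0.28 to 0.59 on the log2 scale, the log2 change, with a median of 0.33. Over all tested genes 28.8% were called higher, 24.6% lower and 53.3% in either direction, with a median of 0.0. Among protein-coding genes 33.2% were called higher, 23.9% lower and 57.1% in either direction, with a median of 0.03. All 3 deletion libraries lay above all 3 WT libraries for 25 of the 37 genes, where the share over all tested genes was 32.9% and over protein-coding genes 37.1%. They lay below for 2, against 30.4% of all tested and 29.6% of protein-coding genes, and the groups overlapped for 10, while 63.3% of all tested genes had groups apart in either direction. Among the 26 genes that rose, the gene with overlapping groups was med15.

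**Figure D1:**
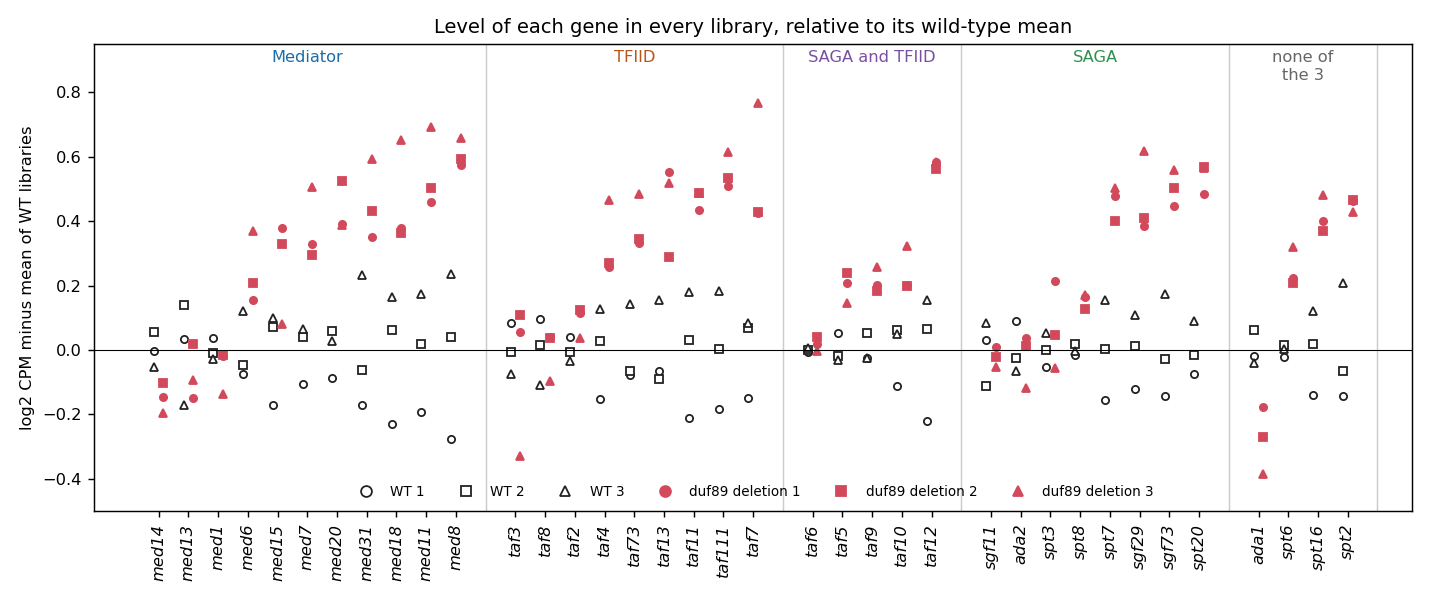
Level of each of the 37 genes in every library as log2 CPM minus the mean of the 3 WT libraries (vertical axis), ordered within each complex by its fold change; open black symbols are WT, filled red symbols the deletion, and the symbol's shape gives the replicate number. For 25 genes the red symbols all lie above the black ones; WT 1 is often the lowest black symbol and deletion 3 the highest red one.

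Mediator had 8 genes higher, 1 lower and 2 that did not pass the test, with a median log2 change of 0.38. Beside this stand 28.8% higher and 24.6% lower over all tested genes. The largest rises were in genes of the head, the part that contacts the polymerase. The gene med8, a head subunit, had 33.3, 41.5 and 47.6 CPM in WT and 60.2, 61.0 and 63.8 CPM in the deletion. Its lowest deletion library exceeded its highest WT library, and it rose by 0.59 (SE 0.11, adjusted p = 0.0023). The head gene med11 had 18.0, 20.9 and 23.2 CPM in WT and 28.3, 29.2 and 33.3 CPM in the deletion, a rise of 0.55 (SE 0.11, adjusted p = 0.0031). Med18 and Med20 form a pair at the edge of the head. The levels of med18 were 23.1, 28.3 and 30.4 CPM in WT and 35.3, 34.9 and 42.7 CPM in the deletion, a rise of 0.46 (SE 0.12, adjusted p = 0.0091). Those of med20 were 22.6, 25.02 and 24.5 CPM in WT and 31.5, 34.6 and 31.5 CPM in the deletion, a rise of 0.44 (SE 0.08, adjusted p = 0.0023). In both genes the groups did not overlap. The remaining head gene of the set, med6, had 31.5, 32.1 and 36.1 CPM in WT and 36.9, 38.3 and 42.9 CPM in the deletion, groups only just apart, with a rise of 0.24 (SE 0.09, adjusted p = 0.038).

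In the middle of Mediator, med31 had 29.8, 32.2 and 39.5 CPM in WT and 42.9, 45.4 and 50.7 CPM in the deletion, a rise of 0.45 (SE 0.11, adjusted p = 0.0072). For med7, whose product is a core subunit of the middle, the values were 31.4, 34.8 and 35.4 CPM in WT and 42.5, 41.5 and 48.1 CPM in the deletion, a rise of 0.38 (SE 0.08, adjusted p = 0.0049). Both genes had separate groups. The third middle gene, med1, differed from them: it had 90.05, 87.0 and 86.0 CPM in WT and 86.5, 86.7 and 79.7 CPM in the deletion, with a log2 change of -0.06 (SE 0.06, adjusted p = 0.41).

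The scaffold gene med14 went the other way from most of the set. It had 144, 151 and 140 CPM in WT and 131, 135 and 126 CPM in the deletion, with no overlap, and fell by 0.15 (SE 0.05, adjusted p = 0.029). This call held in 1 of the 6 fits with a library left out, that without WT replicate 3, and in the others the adjusted p ran from 0.056 to 0.15. It was also lost with total counts (0.18) and with mitochondrial and rRNA genes left out (0.062). The tail gene med15, a target of activators, had 77.2, 91.2 and 93.1 CPM in WT and 113, 109 and 91.8 CPM in the deletion. Deletion 3 lay between WT 2 and WT 3, and the rise was 0.26 (SE 0.09, adjusted p = 0.036). It lost its call without WT 1 (adjusted p = 0.098), without WT 2 (0.066), without deletion 1 (0.073) and without deletion 2 (0.062). Without WT 1, without WT 2 or without deletion 3, the call of med6 was lost too (adjusted p = 0.095, 0.13 and 0.073), as it was with GC-corrected offsets (0.18, adjusted p = 0.091) and with protein-coding genes alone (0.22, adjusted p = 0.057). The single gene of the set from the kinase module, med13, had 28.9, 31.1 and 25.02 CPM in WT and 25.4, 28.5 and 26.5 CPM in the deletion, with overlapping groups and a log2 change of -0.08 (SE 0.10, adjusted p = 0.51).

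Mediator genes with older names were added from a companion list so that each module could be described whole. Over all tested genes 28.8% were called higher and 24.6% lower. In the head, 6 of 7 genes rose, with a median log2 change of 0.46. They include srb4, which encodes Med17, the central head subunit, at 23.3 ± 0.921 CPM in WT and 36.1 ± 3.34 CPM in the deletion (SD, n = 3), a rise of 0.63 (SE 0.09, adjusted p = 0.00062). The seventh, srb6, stood at 0.24 (adjusted p = 0.069); it passed without WT 3 (0.028) or without deletion 1 (0.027). In the middle, 5 of 8 genes rose and 1 fell, with a median of 0.36. Of its older-named genes, pmc4 (Med4) rose by 0.41 (SE 0.12, adjusted p = 0.015), srb7 (Med21) by 0.40 (SE 0.13, adjusted p = 0.028) and med9 by 0.35 (SE 0.09, adjusted p = 0.011). The fall of nut2 (Med10), 0.13 on the log2 scale (SE 0.05, adjusted p = 0.049), was lost in each of the 6 fits with a library left out. The call of srb7 was lost without WT 1, WT 2 or deletion 3 (adjusted p = 0.071, 0.086 and 0.052), and that of pmc4 without WT 2 (0.055).

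The kinase module had no gene called higher and 1 called lower, against 28.8% and 24.6% of all tested genes. Its 4 genes had a median log2 change of -0.06. The gene srb8, which encodes Med12, had 155 ± 3.30 CPM in WT and 132 ± 10.02 CPM in the deletion (SD, n = 3) and fell by 0.23 (SE 0.06, adjusted p = 0.0092), a call lost without deletion 1 (adjusted p = 0.052). The kinase gene srb10 stood at 0.11 (SE 0.09, adjusted p = 0.29) and its cyclin gene srb11 at -0.04 (SE 0.07, adjusted p = 0.63). The difference between modules was not tested. Over the 22 Mediator genes, 12 rose, 3 fell and 7 passed in neither direction. With a library left out the count of falls was 2 without WT 3, 0 without deletion 1 and 1 in the other fits, and that of rises was lowest, 8, without WT 2.

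**Figure D2:**
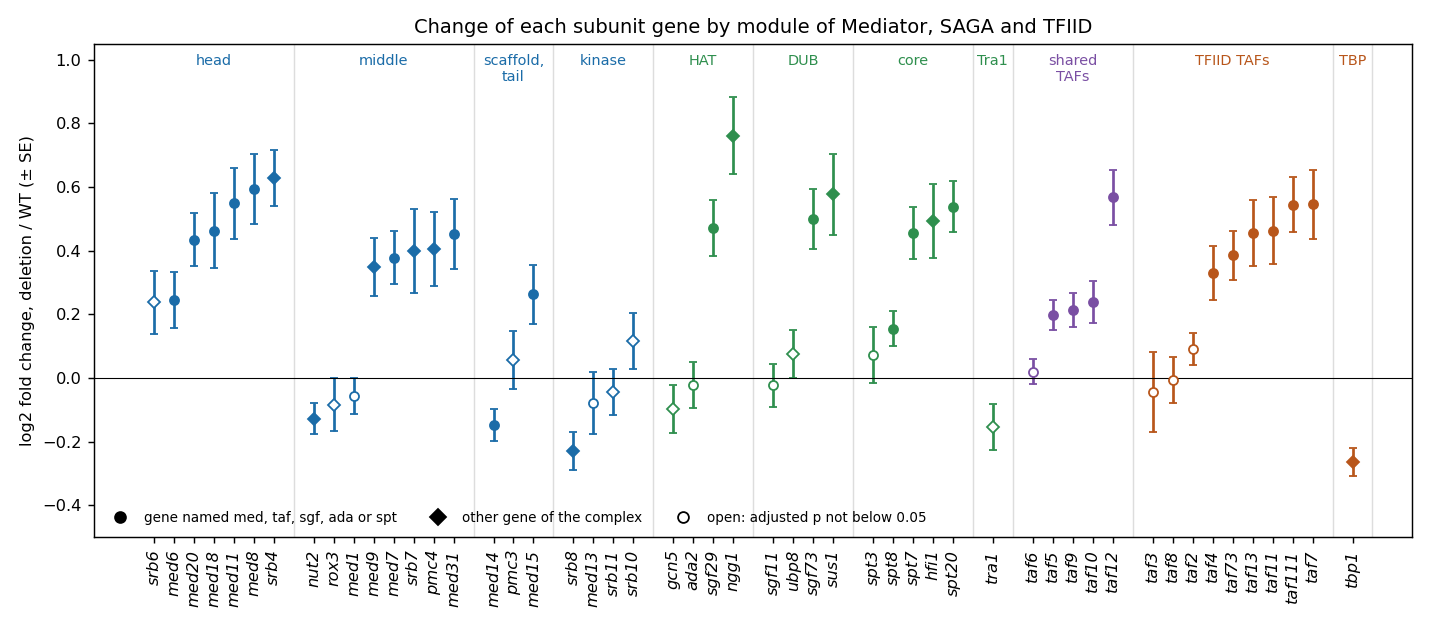
Log2 fold change of deletion against WT (vertical axis, bars are ± 1 approximate SE, 3 libraries a group) for each subunit gene of Mediator, SAGA and TFIID, by module; circles are genes of the naming rule, diamonds other genes of the complexes, and open symbols did not pass an adjusted p of 0.05. The 7 head genes of Mediator lie between 0.24 and 0.63 and the 4 kinase-module genes between -0.23 and 0.11; TBP lies at -0.27, below every TAF.

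TFIID had 6 genes higher, none lower and 3 that did not pass the test among the 9 TAFs that are its own. Their median log2 change was 0.39. The shares called over all tested genes were 28.8% higher and 24.6% lower. The gene taf7, which encodes a partner of the largest TAF, had 30.8, 35.8 and 36.2 CPM in WT and 45.9, 46.0 and 58.2 CPM in the deletion. It rose by 0.55 (SE 0.11, adjusted p = 0.0029), with deletion 3 well above the other libraries. The largest TAF itself is encoded by taf111, the Taf1 of other species. It had 47.9, 54.4 and 61.7 CPM in WT and 77.4, 78.7 and 83.2 CPM in the deletion, a rise of 0.55 (SE 0.09, adjusted p = 0.0011) with wide separation of the groups.

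Taf11 and Taf13 bind each other through histone folds, and their genes moved by nearly the same amount. Genes of other complexes had like values, such as med18 and spt7 at 0.46 each. For taf11 the levels were 16.2, 19.1 and 21.2 CPM in WT and 25.3, 26.3 and 26.3 CPM in the deletion, a rise of 0.46 (SE 0.11, adjusted p = 0.0054). For taf13 they were 20.6, 20.2 and 24.0 CPM in WT and 31.7, 26.3 and 30.9 CPM in the deletion, a rise of 0.46 (SE 0.10, adjusted p = 0.0055). Neither gene had overlapping groups. The gene taf4, whose product pairs with Taf12, had 58.5, 66.2 and 70.9 CPM in WT and 77.7, 78.3 and 89.8 CPM in the deletion, a rise of 0.33 (SE 0.08, adjusted p = 0.0094).

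Fission yeast has a pair of Taf5 proteins: taf73 encodes the form annotated to TFIID and taf5 the form annotated to both complexes. The TFIID form had 53.7, 54.1 and 62.4 CPM in WT and 71.2, 71.9 and 79.2 CPM in the deletion, a rise of 0.39 (SE 0.08, adjusted p = 0.003). The shared form had 140, 134 and 132 CPM in WT and 156, 160 and 150 CPM in the deletion, a rise of 0.20 (SE 0.05, adjusted p = 0.0071). Within each library the log2 ratio of taf73 to taf5 counts was -1.39, -1.30 and -1.08 in WT and -1.13, -1.15 and -0.92 in the deletion, so the ratios of the groups overlapped.

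The other 3 TAFs of TFIID did not pass the test. The gene taf2, whose product contacts core promoter DNA, had 107, 103 and 101 CPM in WT and 112, 113 and 106 CPM in the deletion, a log2 change of 0.09 (SE 0.05, adjusted p = 0.15). Without deletion 3 its value was 0.14 and its adjusted p 0.049. The gene taf8 stood at 58.3 ± 4.15 CPM in WT and 58.1 ± 3.12 CPM in the deletion (SD, n = 3), a log2 change of -0.01. For taf3 the values were 16.6 ± 0.915 and 16.1 ± 2.55 CPM, a log2 change of -0.04. The level of taf3 was 17.5, 16.5 and 15.7 CPM in WT and 17.2, 17.9 and 13.1 CPM in the deletion, so deletion 3 was the lowest of all 6 libraries. The gene of TBP, tbp1, is not caught by the naming rule. It had 315 ± 8.22 CPM in WT and 262 ± 7.37 CPM in the deletion (SD, n = 3), and it fell by 0.27 (SE 0.04, adjusted p = 0.0012) with no overlap of the groups.

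The 5 TAFs shared by SAGA and TFIID had 4 genes higher, against 28.8% of all tested genes, and a median log2 change of 0.21. The gene taf12 stood apart from the other shared TAFs, with 54.6, 66.6 and 70.8 CPM in WT and 95.3, 94.1 and 95.3 CPM in the deletion, a rise of 0.57 (SE 0.09, adjusted p = 0.00088). Its deletion libraries lay close together, while WT 1 was well below the other WT libraries. The histone-fold gene taf10 had 66.7, 75.3 and 74.5 CPM in WT and 82.8, 82.6 and 90.03 CPM in the deletion, a rise of 0.24 (SE 0.07, adjusted p = 0.013). For taf9 the levels were 74.9, 79.0 and 74.97 CPM in WT and 87.7, 86.6 and 91.3 CPM in the deletion, a rise of 0.21 (SE 0.05, adjusted p = 0.0083). Neither gene had overlapping groups, but both calls were lost with offsets corrected for GC content (adjusted p = 0.078 for taf10 and 0.12 for taf9). The gene taf6, whose product pairs with Taf9, had 267, 268 and 270 CPM in WT and 272, 276 and 268 CPM in the deletion, a log2 change of 0.02 (SE 0.04, adjusted p = 0.70). Per length it had the highest level of the 37 genes, and it was the one with the smallest relative spread between WT libraries.

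SAGA had 5 genes higher, none lower and 3 that did not pass the test among the 8 that are its own. Their median log2 change was 0.31. Among all tested genes 28.8% were called higher and 24.6% lower. In the core, spt20, a structural subunit, had 21.6, 22.5 and 24.2 CPM in WT and 31.9, 33.8 and 33.7 CPM in the deletion. The groups were far apart relative to their spread, and it rose by 0.54 (SE 0.08, adjusted p = 0.00079). The gene spt7, whose product holds the core together, had 47.1, 52.5 and 58.4 CPM in WT and 73.2, 69.2 and 74.4 CPM in the deletion, a rise of 0.46 (SE 0.08, adjusted p = 0.0018). Spt3 and Spt8 are the subunits that contact TBP. The gene spt8 had 58.7, 60.1 and 59.3 CPM in WT and 66.6, 64.9 and 66.8 CPM in the deletion, close but separate groups, with a rise of 0.15 (SE 0.06, adjusted p = 0.038). For spt3 the values were 28.4, 29.5 and 30.6 CPM in WT and 34.2, 30.4 and 28.4 CPM in the deletion, overlapping groups with a log2 change of 0.07 (SE 0.09, adjusted p = 0.51). The call of spt8 was lost in 4 of the 6 fits with a library left out: without WT 1, WT 2, WT 3 or deletion 1 (adjusted p = 0.079, 0.09, 0.066 and 0.057), with log2 changes of 0.15 to 0.18 in those fits. It was lost as well with the Wald test of DESeq2 (adjusted p = 0.075), with GC-corrected offsets (0.11, adjusted p = 0.13) and with protein-coding genes alone (adjusted p = 0.077), and in the authors' deposited table its adjusted p is 0.083.

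In the acetyltransferase module, sgf29, whose product reads methylated histone H3, had 36.4, 40.0 and 42.6 CPM in WT and 51.7, 52.6 and 60.8 CPM in the deletion, a rise of 0.47 (SE 0.09, adjusted p = 0.0022). The gene ada2, whose product is an adaptor of the catalytic subunit Gcn5, had 51.6, 47.7 and 46.4 CPM in WT and 49.8, 48.9 and 44.7 CPM in the deletion, a log2 change of -0.02 (SE 0.07, adjusted p = 0.81). In the deubiquitinase module, sgf73, which anchors the module to SAGA, had 21.4, 23.2 and 26.7 CPM in WT and 32.3, 33.5 and 34.8 CPM in the deletion, a rise of 0.50 (SE 0.09, adjusted p = 0.0024). The gene sgf11 of the same module had 61.2, 55.4 and 63.5 CPM in WT and 60.3, 59.1 and 57.8 CPM in the deletion, a log2 change of -0.02 (SE 0.07, adjusted p = 0.79). Each of these modules thus held a gene with separate groups and a gene with overlapping ones.

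The 6 SAGA genes with other names showed the same mixture. The gene ngg1 (Ada3), the partner of Ada2 and Gcn5, had 62.1 ± 11.7 CPM in WT and 105 ± 9.004 CPM in the deletion (SD, n = 3), a rise of 0.76 (SE 0.12, adjusted p = 0.0011). The gene sus1 of the deubiquitinase module rose by 0.58 (SE 0.13, adjusted p = 0.0046) and the core gene hfi1 by 0.49 (SE 0.12, adjusted p = 0.0065). Both catalytic subunits stayed outside the calls: the acetyltransferase gene gcn5 stood at -0.10 (SE 0.07, adjusted p = 0.29) and the ubiquitin protease gene ubp8 at 0.08 (SE 0.07, adjusted p = 0.41). The large scaffold gene tra1, a target of activators, stood at -0.15 (SE 0.07, adjusted p = 0.10) and was called lower with GC-corrected offsets (-0.23, adjusted p = 0.029). Counted whole, SAGA had 12 of 19 genes higher and none lower, and TFIID 10 of 15 higher and 1 lower. Of all tested genes 28.8% were higher and 24.6% lower. With GC-corrected offsets 1 SAGA gene, tra1, was lower, and with cyclic loess offsets, described below, 4 were.

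Of the genes outside the 3 complexes, the histone chaperone genes rose and ada1 fell. The gene spt16 encodes the large subunit of FACT, which carries histones as the polymerase passes. It had 104, 117 and 125 CPM in WT and 152, 148 and 161 CPM in the deletion, a rise of 0.41 (SE 0.07, adjusted p = 0.0012). The elongation-linked histone chaperone gene spt6 had 117, 121 and 120 CPM in WT and 139, 138 and 149 CPM in the deletion, a rise of 0.25 (SE 0.05, adjusted p = 0.0026). The gene spt2, whose product binds histones H3 and H4 in other species, had 35.7, 37.6 and 45.5 CPM in WT and 54.3, 54.4 and 53.0 CPM in the deletion, a rise of 0.45 (SE 0.09, adjusted p = 0.0032). None of these genes had overlapping groups. The adenosine deaminase gene ada1 had 158, 167 and 156 CPM in WT and 142, 133 and 123 CPM in the deletion, also without overlap, and fell by 0.28 (SE 0.06, adjusted p = 0.0045), the largest fall of the 37.

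Summed over all 37 genes, the transcripts made up 2290, 2399 and 2448 CPM in WT and 2733, 2727 and 2760 CPM in the deletion, a ratio of 1.15. The ratio was 1.22 for TFIID (430 ± 16.8 and 526 ± 13.5 CPM, SD, n = 3), 1.18 for SAGA (336 ± 13.5 and 398 ± 4.87 CPM), 1.14 for Mediator (562 ± 27.5 and 638 ± 5.55 CPM) and 1.13 for the shared TAFs (616 ± 11.1 and 696 ± 2.55 CPM). These sums hold the named genes alone, without tbp1 (315 CPM in WT and 262 CPM in the deletion) and the other subunits. They are thus not sums of whole complexes. The sums of the groups did not overlap for the named genes of any complex. Sums weigh abundant genes most, and the abundant taf6 and med14 changed little or fell.

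The WT libraries differed among themselves in a repeated way. Of the 26 genes that rose, WT 1 was the lowest WT library in 24 and WT 3 the highest in 20, while deletion 3 was the highest deletion library in 18. These counts were not made over all tested genes, so they do not show whether this order is particular to the named ones. The median deviation of the 37 genes from the WT mean was -0.08, 0.01 and 0.08 in WT 1 to 3 and 0.33, 0.29 and 0.39 in deletion 1 to 3, on the log2 scale. The median coefficient of variation between libraries was 7.54% in WT and 4.94% in the deletion. Leaving out WT 1 gave 23 genes higher and a median of 0.26.

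Ratios of partner subunits were compared within each library. The 9 pairs were written down after the values were seen, so the ratios are a description. With 3 against 3 libraries an exact two-sided permutation test cannot go below p = 0.1. No pair could thus pass at 0.05, and the lowest adjusted p of that test, 0.225, decides nothing. For the histone-fold pair taf4 and taf12, the log2 ratio of CPM within a library was 0.10, -0.01 and 0.00 in WT and -0.29, -0.27 and -0.09 in the deletion, so taf4 was lower relative to taf12 in all 3 deletion libraries. For taf6 and taf9 it was 1.83, 1.76 and 1.85 in WT and 1.63, 1.67 and 1.55 in the deletion, again separate groups. Taf10 has several histone-fold partners. The ratio of spt7 to taf10 was higher in the deletion by 0.22 (means of -0.46 ± 0.09 and -0.24 ± 0.05, SD, n = 3) and that of taf8 to taf10 lower by a difference of -0.25 (means of -0.31 ± 0.19 and -0.55 ± 0.15), where the nearest libraries of the groups almost touched, at -0.4651 and -0.4671. The ratios of taf3 to taf10, taf11 to taf13, med18 to med20 and spt16 to its FACT partner pob3 overlapped between the groups. For taf11 and taf13 the difference was 0.02, and for spt16 and pob3 it was 0.04.

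Levels of different genes were compared as CPM per kilobase of exon. The lengths are from RefSeq, whose build is not the one named in the processing notes. In WT they spanned 13.6-fold, from 7.96 ± 0.857 for med13 to 108 ± 0.537 for taf6 (SD, n = 3). The shared TAFs had the highest median, 58.9 CPM per kilobase, followed by TFIID at 27.8, Mediator at 25.6 and SAGA at 22.0. Within Mediator the order began with med13 and med7 (10.1 ± 0.635) and ended with med1 (43.5 ± 1.04) and med14 (46.9 ± 1.79). In RefSeq 77.7% of med7 lies opposite ade8 and 94.95% of med14 opposite pus7, so shared reads may enter their levels. Within SAGA, sgf11 stood far above the rest at 85.3 ± 5.93 CPM per kilobase, with sgf29 next at 32.9 ± 2.60 and spt20 lowest at 11.9 ± 0.688. Neighbours in the order often lay within their spread, as did med11, med20 and med15 at 25.4 ± 3.23, 25.6 ± 1.34 and 25.6 ± 2.56. Of the shared TAFs, taf12 was lowest in WT, at 31.4 ± 4.12, and had the largest rise. The gene of its partner, taf4, stood at 40.6 ± 3.90.

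**Figure D3:**
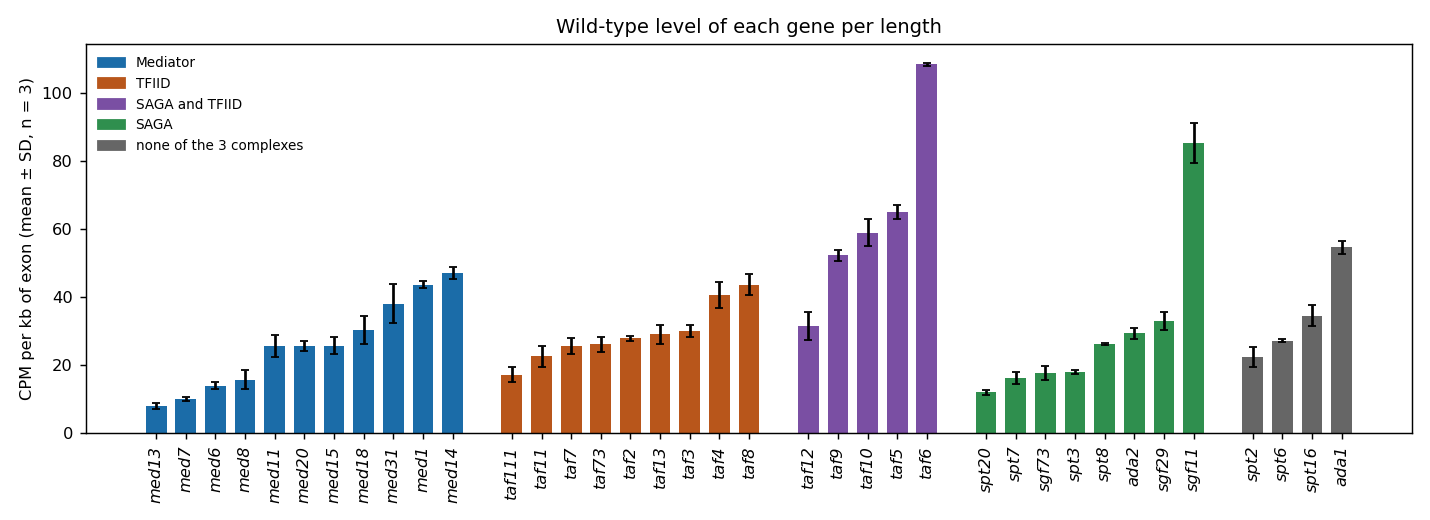
WT level of each gene in CPM per kilobase of exon (bars are means from 0, error bars SD over 3 WT libraries), coloured by complex and ordered within it. Levels run from 7.96 for med13 to 108 for taf6, with sgf11 at 85.3 far above the other SAGA genes.

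Companion lists of other transcription genes gave a wider setting. Over their 72 genes, the rest of the 3 complexes included, 39 rose (54.2%), 11 fell (15.3%) and 22 did not pass the test, against 28.8% and 24.6% of all tested genes. Among 15 genes listed for histone chaperones and the Paf1 elongation complex, 11 rose and 1 fell. That list also holds ell1 and eaf1, which belong to neither class. The fall was that of ell1 (-0.44, adjusted p = 0.0049), and eaf1 rose by 0.52 (adjusted p = 0.0026). The Paf1 complex gene leo1 rose by 0.75 (SE 0.10, adjusted p = 0.00039), paf1 by 0.40 (SE 0.05, adjusted p = 0.00035) and tpr1 by 0.35 (SE 0.05, adjusted p = 0.00042). The histone chaperone gene hip1 rose by 0.46 (SE 0.07, adjusted p = 0.00062). Among 14 genes listed for the NuA4 acetyltransferase, 9 rose and 2 fell, with a median log2 change of 0.30. Under cyclic loess 4 of them were higher and 4 lower, with a median of 0.10. The list holds the bromodomain gene bdc1, which rose by 0.61 (SE 0.10, adjusted p = 0.0014), and also actin, act1, a NuA4 subunit with many other roles, which fell by 0.36 (SE 0.04, adjusted p = 0.00031). Further NuA4 rises were vid21 (0.49, adjusted p = 0.0022) and swc4 (0.50, adjusted p = 0.0024).

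Of the general transcription factors, 9 of 20 genes were higher and 5 lower, with a median log2 change of 0.09; the shares over all tested genes were 28.8% and 24.6%. Without any one of the 3 deletion libraries 3 were lower, as tfa2 and tfb4 lost their calls. Under cyclic loess 5 were higher and 4 lower. The gene sua7, which encodes TFIIB, had 21.5 ± 0.298 CPM in WT and 13.4 ± 0.845 CPM in the deletion (SD, n = 3) and fell by 0.68 (SE 0.09, adjusted p = 0.00046), more than any of the 37. The TFIIH-associated kinase gene mcs6 fell by 0.40 (SE 0.05, adjusted p = 0.00039). In the other direction the TFIIH gene tfb1 rose by 0.61 (SE 0.12, adjusted p = 0.0024) and tfs1, which encodes TFIIS, by 0.50 (SE 0.08, adjusted p = 0.0012). Among 6 genes of TBP and its regulators, 3 rose and 1, tbp1, fell. The subunits of the TBP inhibitor NC2 were both higher, ncb2 by 0.58 (SE 0.11, adjusted p = 0.0029) and bur6 by 0.24 (SE 0.06, adjusted p = 0.0098), the latter not with GC-corrected offsets (adjusted p = 0.076). The bromodomain gene bdf1 rose by 0.12 (SE 0.05, adjusted p = 0.046), a call that was lost in 5 of the 6 fits with a library left out, those other than without deletion 3.

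Fold changes moved with expression level across protein-coding genes, and most of the 37 lay in the range where rises were common. Protein-coding genes were split into 8 equal parts by mean CPM. In part 1, up to 18.4 CPM, 33.2% were called higher and 11.6% lower, and its single named gene, taf3, passed in neither direction. In parts 2 to 4, from 18.4 to 77.7 CPM, 52.3% of 1859 protein-coding genes were called higher and 9.36% lower. Of 24 named genes there, 19 were higher and none lower. Medians were 0.24 for the protein-coding genes and 0.45 for the named ones. In parts 5 and 6, from 77.8 to 169 CPM, 27.6% were called higher and 24.4% lower, and 7 of 11 named genes were higher and 2 lower (med14 and ada1), with medians of -0.02 and 0.21. In parts 7 and 8, above 169 CPM, 10.2% were higher and 51.3% lower, and the single named gene there, taf6, passed in neither direction. The part that expression level has in the members' changes was not tested.

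**Figure D4:**
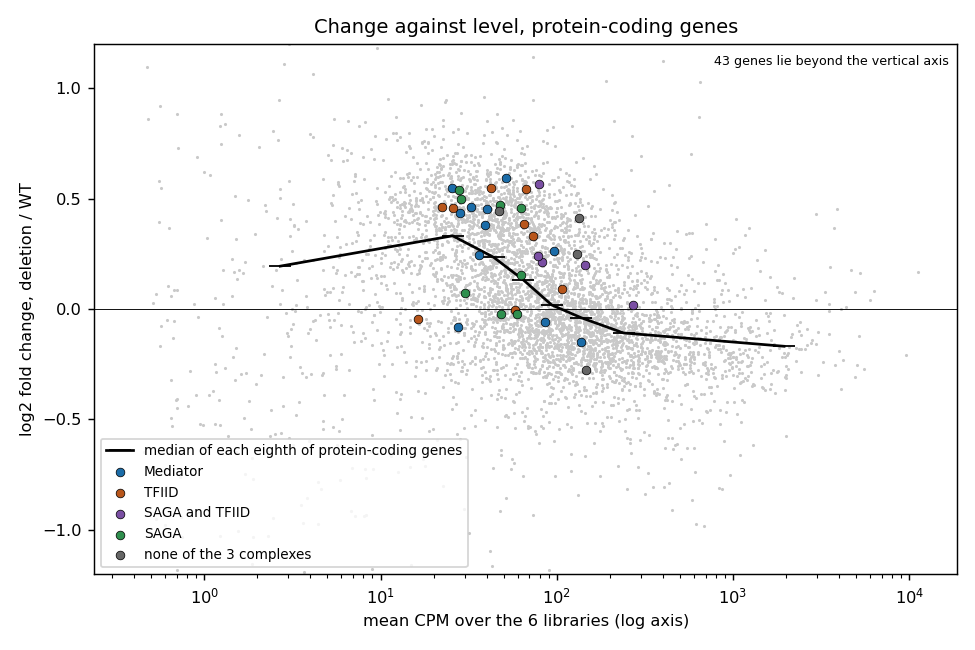
Log2 fold change of deletion against WT (vertical axis) against mean CPM over the 6 libraries (horizontal log axis) for tested protein-coding genes (grey) and the 37 named genes (coloured by complex); the black line joins the medians of 8 equal parts of the protein-coding genes. The line falls from 0.33 in the second part to -0.17 in the eighth, most coloured points lie above it, and 43 genes lie beyond the vertical axis.

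The way of scaling changed how many of the genes were called. With total counts only, 27 were higher and 1 lower, and the median of all tested genes moved to 0.07 with 34.3% called higher and 17.4% lower. With offsets corrected for GC content, 22 were higher and 2 lower (26.0% and 29.5% over all genes). The median GC content of the 37 was 37.4%, against 37.02% over all tested genes. With cyclic loess offsets, which remove a trend with abundance, 16 were higher and 5 lower (21.8% and 23.9% over all genes, 45.6% in either direction), and the median was 0.21. Under cyclic loess med7, med15, med18, med20, med31, spt8, taf9, taf10, taf11 and taf13 lost their calls, and med6 moved to -0.0028. Of the older-named Mediator genes, pmc4, srb7 and med9 lost theirs. Ada2 (-0.23), med13 (-0.34) and sgf11 (-0.18) were then called lower (adjusted p = 0.048, 0.028 and 0.043), and taf6 was called higher at 0.13 (adjusted p = 0.017). Mediator then had 2 genes higher and 2 lower. In the whole complexes under cyclic loess, Mediator had 3 higher and 6 lower of 22, SAGA 10 and 4 of 19, and TFIID 7 and 1 of 15. The Mediator head then had 3 of 7 genes higher, with a median of 0.21. The middle had 0 of 8 higher and 2 lower, with a median of 0.15. The kinase module then had 3 of 4 genes lower, and gcn5 and tra1 were called lower at -0.27 and -0.28. The calls of 15 risers, med8, med11, sgf29, sgf73, spt2, spt6, spt7, spt16, spt20, taf4, taf5, taf7, taf12, taf73 and taf111, and of ada1 were kept in all 19 alternative settings.

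**Figure D5:**
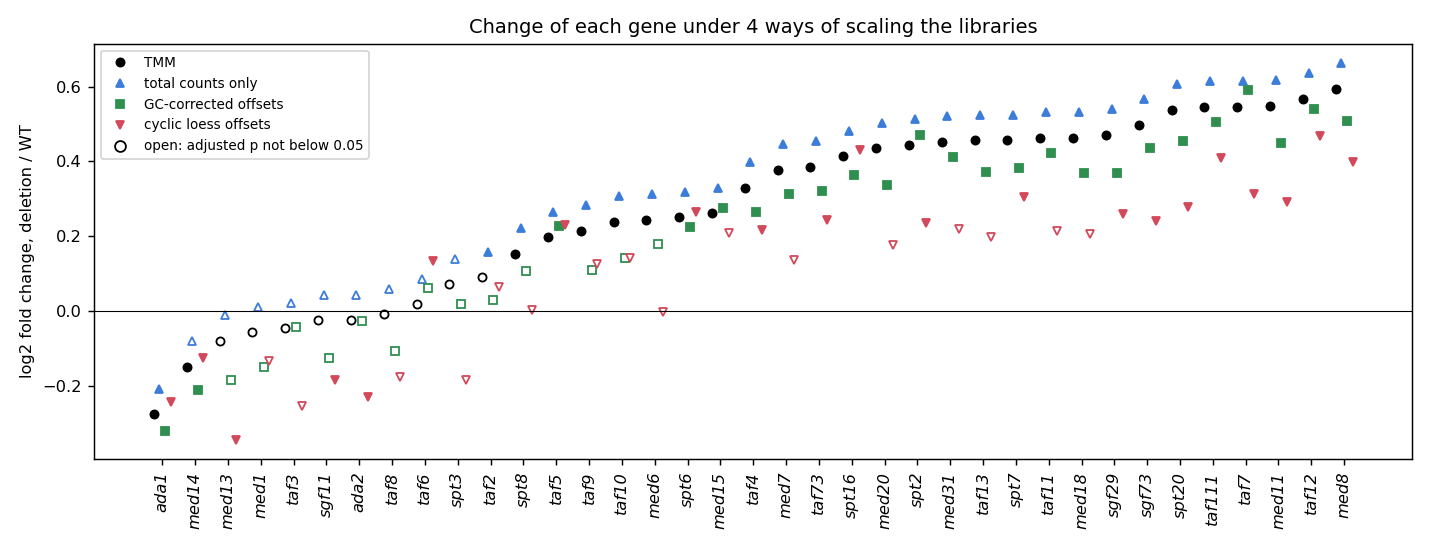
Log2 fold change of each of the 37 genes (vertical axis) under TMM, total counts only, GC-corrected offsets and cyclic loess offsets, ordered by the TMM value; open symbols did not pass an adjusted p of 0.05. Total counts place nearly all genes slightly higher and cyclic loess places most of them lower, with 16 called higher in place of 26.

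Many of the genes overlap another transcript in the RefSeq annotation, and no source used here says whether the deposited counts used strand, so reads of overlapping genes may be shared. In that annotation 32 of the 37 overlap some feature, and 8 have over 50% of their exons opposite a protein-coding gene. These are med6, med7, med8, med11, med14, spt16, taf4 and taf8, of which 6 rose and 1 fell. Among their partners, nop2, a ribosome biogenesis gene that covers 100% of spt16, rose by 0.36 (SE 0.05, adjusted p = 0.00042), and ssr3 opposite taf4 rose by 0.37 (SE 0.10, adjusted p = 0.015). In the opposite direction, pus7, which covers 94.95% of med14, rose by 0.24 (SE 0.05, adjusted p = 0.0044) where med14 fell, and ade8 opposite med7 fell by 0.13 (SE 0.04, adjusted p = 0.033) where med7 rose. The partner of med11, pkp1, stood at -0.17 (adjusted p = 0.057) and that of med8, ral2, at 0.03 (adjusted p = 0.75). The non-coding RNA SPNCRNA.1265, opposite 21.6% of sgf73, went from 7.69 ± 0.813 CPM in WT to 3.43 ± 0.441 CPM in the deletion (SD, n = 3) and fell by 1.17 (SE 0.17, adjusted p = 0.00065). The 15 genes that overlap no counted feature had 12 higher, none lower and a median log2 change of 0.45. Over all tested genes 28.8% were higher and 24.6% lower. Several of the 15 still lie opposite annotated non-coding RNAs that have no counts, such as sgf29 over 100% and taf7 over 88.6% of their exons. Only 5 of the 37 overlap no annotated feature, so shared reads may enter the 15 as well.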

How the data were processed

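In the deposited table, each of the 6 libraries has unnormalized integer read counts for every gene. Per the labels' protocols, RNA was taken up with hot acid phenol and made into stranded paired-end TruSeq libraries. Tools listed in the submitters' processing notes, with no roles, are HTSeq 0.10.0, HISAT2 2.1.0, SAMtools, DESeq and DESeq2, with the build ASM294v2. No source used here states the strand setting of the counting or a filter. The authors' deposited comparison holds log2 fold changes, a score (the Wald statistic), p-values and the mean signal of each group in normalized counts, as the authors' column names give them. In the authors' deposited table, a total of 25 of the 37 genes are higher and 2 lower at an adjusted p below 0.05, and its log2 fold changes differ from the refit by -0.02 each.

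The counts (6987 lines, 6986 genes, as one identifier has 2 lines that were summed) were tested with edgeR 4.0.16 in R 4.3.3 (filterByExpr with a minimum count of 10, TMM, quasi-likelihood F test on genotype, no covariate, Benjamini-Hochberg over 6045 genes). The approximate SE is the log2 change over the root of the F statistic. CPM values are TMM-scaled. The per-library log2 values of the plot of levels use a prior count of 2. The test was checked on simulated data with few changed genes and no trend of the change with expression level. That check does not show how the test fares where many genes change, as here. Libraries of one group differed by more than sampling noise (chi-square per degree of freedom 5.95 to 15.9). Lengths, GC content and overlaps come from RefSeq (ASM294v3, 6833 genes or 97.8% matched, all 37 named ones included). As that is not the build in the notes, no coordinates are printed. No sequences are printed. Figures were drawn with matplotlib 3.10.9.

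The members, the companion lists and the tests were chosen with earlier results of these data known. Modules and subunit pairs were written down after the values were seen, and the list entries spn1, rtf1 and dpb3 were left out because those names belong to other proteins in these files. By the rule for named genes, values in every library are given for up to 6 called members per complex and direction and for paralogs. Other members named, and list genes beyond the 4 called ones with the smallest adjusted p, were chosen after their values were seen. Companion lists are read from the same fit. Alternatives were DESeq2 1.42.0, limma-voom (limma 3.58.1), other scalings (upper quartile, size factors of DESeq2, library totals, GC-corrected and cyclic loess offsets), other filters (none, or 3 libraries with at least 10 CPM), a fit of protein-coding genes alone, one without mitochondrial and rRNA genes, a threshold of 0.01, the replicate number as a block, and fits that each leave out 1 library.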

Additional observations from a re-analysis of the deposited data

How the results depend on the processing

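Except under cyclic loess, between 22 and 27 of the 37 genes were higher in every alternative run and 1 or 2 were lower. With the replicate number as a block, 3533 genes were called in place of 3225, and 26 named genes were higher and 2 lower as before, with none of the 37 changing its call. Among companion genes the block added a rise of srb6 (0.24, adjusted p = 0.03), which makes 7 of 7 head genes higher, and falls of tra1 (-0.15, adjusted p = 0.039), which makes 1 SAGA gene lower, hip3 (-0.15, adjusted p = 0.027) and tra2 (-0.13, adjusted p = 0.049). Same-numbered libraries correlated at -0.13, -0.17 and 0.26 in their deviations from the group means, so the numbers were not taken to pair the samples, and not every library correlated best with its own number. At an adjusted p below 0.01, 2084 genes were called. With mitochondrial and rRNA genes left out, with total counts or at an adjusted p below 0.01, 1 named gene was lower and 0 of Mediator.

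Cyclic loess gave 16 named genes higher and 5 lower; Mediator had 2 higher and 2 lower and SAGA 2 lower. Of the companion genes 24 were then higher and 17 lower. Median log2 fold changes under cyclic loess were 0.21 for all 37, 0.18 for Mediator, 0.12 for SAGA, 0.14 for the shared TAFs, 0.22 for TFIID and 0.25 for the 4 genes outside the complexes. Corrected for GC content, the shared TAFs had 2 genes higher and a median of 0.14, and SAGA a median of 0.24. With total counts, medians were 0.40 for all 37, 0.28 for the shared TAFs, 0.37 for SAGA and 0.40 for the genes outside the complexes. Ratios of summed CPM of the named genes were then 1.21 for all, 1.18 for the shared TAFs, 1.24 for SAGA, 1.28 for TFIID and 1.16 for the genes outside. The cause of these shifts was not tested.

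With 1 library left out, 2401 to 3147 genes were called, the named genes had 23 to 26 higher and 1 to 2 lower (Mediator 0 to 1 lower), and their median ran from 0.26 to 0.40. The median of the shared TAFs ran from 0.20 to 0.26, and 7 to 10 companion genes were lower. The direction changed in 8 genes, 7 of which had not passed the test. Med6 moved to -0.0028 and spt3 to -0.18 under cyclic loess, and taf6 to -0.0083 with protein-coding genes alone. With total counts the values were 0.0443 for ada2, 0.0103 for med1, 0.044 for sgf11, 0.0212 for taf3 and 0.0603 for taf8. Without mitochondrial and rRNA genes they were 0.0042 for ada2, 0.0041 for sgf11 and 0.0201 for taf8, and taf8 stood at 0.0015 with no filter and 0.0084 with upper quartile factors. With 1 library left out ada2 ran from -0.0534 to 0.0467, med1 from -0.0696 to 0.0053, sgf11 from -0.0768 to 0.0201, taf3 from -0.0982 to 0.1038 and taf8 from -0.0586 to 0.0607. With 3 libraries a group and SEs of 0.04 to 0.13, changes near 0.1 could not be resolved for most genes.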
